A study of Mus musculus with 12 samples.

Results

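Of 431930 merged ATAC-seq regions on mouse chromosomes 1 to 19 and X, 669 were called in every one of 12 libraries of cultured muscle fibroblasts. ATAC-seq uses a transposase that inserts sequencing adapters into accessible DNA, and the peak caller then lists places with more adapter ends than the local background. Overlapping or touching peaks of the 12 lists were joined into 1 region, and a region belonged to the set when each of the 12 lists placed at least 1 peak in it. The 669 were therefore chosen by the calls themselves, so their presence in all libraries is a description and was not tested. Another 343 regions were called in 11 libraries, 8116 in 5, 5070 in 6 and 336761 in only 1.

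The cells were primary fibroblasts of the lower abdominal muscle of Aromhum mice, which the methods of the study give as male and which carry the human aromatase gene as a bacterial artificial chromosome injected into FVB/N oocytes. Every group therefore carried the transgene, and cells without it were not analysed here. Cells passaged a single time and kept in serum-free medium were starved overnight and given either DMSO or fulvestrant at 100 nM, an antagonist that degrades the estrogen receptor, for 3 hours. Ethanol or estradiol (E2) at 10 nM followed for 1 hr, which makes 4 groups of 3 libraries, called vehicle (neither agent), E2, fulvestrant, and E2 plus fulvestrant. The mouse age is not given in the sources used here, nor is it stated whether the libraries of a group came from separate animals or cultures, so p-values measure only the spread between these libraries, which may be technical.

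Repeated DNA is a known hazard of mapping short reads. Telomeres are tandem arrays of a hexamer that cap chromosome ends, with shorter arrays inside chromosomes. The major satellite is the tandem repeat of mouse pericentromeric heterochromatin, and ribosomal RNA genes stand in long arrays of which an assembly holds few copies. Where a reference holds fewer copies of a sequence than the cells do, reads from all copies pile up at the places that are there, and where several copies are there, an aligner places a read at one of its equal matches. Nuclear copies of mitochondrial DNA can likewise collect mitochondrial reads. A promoter of an active gene, by contrast, is usually unique sequence with a nucleosome-free stretch next to the start site.

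Sequences of several kinds of region are shown here first, from the mouse assembly GRCm38 (mm10), plus strand, 5′ to 3′. The satellite family gave the highest tag numbers, and it is shown by windows of 234 bases, the commonest repeat period of the family. Capitals mark the 96 bases around the summit whose copies were counted. The first window, chr2:98666682-98666915, lies near Gm10800 and the second, chr6:103649087-103649320, in an intron near Gm44436, where the period was 120 bases.
Gm10800: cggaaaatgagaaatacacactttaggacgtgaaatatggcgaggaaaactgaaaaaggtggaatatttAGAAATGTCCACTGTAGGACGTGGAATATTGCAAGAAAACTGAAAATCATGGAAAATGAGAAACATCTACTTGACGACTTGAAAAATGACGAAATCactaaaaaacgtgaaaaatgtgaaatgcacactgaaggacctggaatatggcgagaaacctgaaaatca
Gm44436: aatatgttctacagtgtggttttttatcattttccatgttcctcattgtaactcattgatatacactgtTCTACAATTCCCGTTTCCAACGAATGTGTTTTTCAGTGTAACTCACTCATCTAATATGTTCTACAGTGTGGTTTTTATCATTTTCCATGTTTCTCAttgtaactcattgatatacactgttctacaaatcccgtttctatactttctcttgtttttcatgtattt

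The remaining sequences stand for further kinds of region, again with the 96 summit bases in capitals: a copy of mitochondrial DNA at chr1:24613670-24613789, a member of the Speer4 gene cluster at chr5:14940532-14940651, a small nucleolar RNA (snoRNA) cluster at chr7:59779070-59779189, an intergenic repeat near Hrh1 at chr6:114530608-114530727, and summits that occur a single time in the assembly near Aida at chr1:183299272-183299391 and in Sos2 at chr12:69654094-69654213.
Gm28437: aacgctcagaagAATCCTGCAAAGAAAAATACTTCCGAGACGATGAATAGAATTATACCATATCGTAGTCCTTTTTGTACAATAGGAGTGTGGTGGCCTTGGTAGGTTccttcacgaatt
Speer4e: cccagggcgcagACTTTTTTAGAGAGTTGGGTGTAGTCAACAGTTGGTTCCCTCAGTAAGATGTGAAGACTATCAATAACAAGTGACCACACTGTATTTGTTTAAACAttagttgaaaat
Gm25157: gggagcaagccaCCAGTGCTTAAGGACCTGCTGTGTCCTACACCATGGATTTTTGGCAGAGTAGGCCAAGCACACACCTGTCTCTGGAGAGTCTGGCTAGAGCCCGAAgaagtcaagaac
Hrh1: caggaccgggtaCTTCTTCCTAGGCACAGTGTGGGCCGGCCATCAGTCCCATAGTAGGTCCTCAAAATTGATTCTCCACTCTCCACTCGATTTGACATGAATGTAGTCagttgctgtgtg
Aida: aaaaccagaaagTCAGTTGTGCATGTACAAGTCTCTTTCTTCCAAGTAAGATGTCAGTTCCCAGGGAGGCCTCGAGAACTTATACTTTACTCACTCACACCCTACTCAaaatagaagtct
Sos2: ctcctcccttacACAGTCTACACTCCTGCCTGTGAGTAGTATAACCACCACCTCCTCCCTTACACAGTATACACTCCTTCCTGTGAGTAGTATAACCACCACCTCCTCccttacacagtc

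By the smallest number of occurrences of 3 adjoining 32-base words at the summit, the Hrh1 repeat had 58 copies in the assembly, the snoRNA summit 15, and the Speer4e and mitochondrial-like summits 2 each. The Gm10800 and Gm44436 summits had 1, although both belong to a family of 26 regions by BLAST, so exact words miss diverged copies. The Sos2 stretch repeats a unit with variations that fell under the cutoff of 60% self-identity for a tandem repeat, so a count of 1 does not mark a sequence free of repeats.

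The libraries differed in ways the treatments do not explain. A list held 28792 to 109449 peaks on the chromosomes used, and 6.31% to 46.1% of a list passed a q-value of 0.05. The 4 libraries numbered 1 had 22 to 36 peaks on chromosome Y, against 854 to 1148 in the 8 libraries numbered 2 or 3. The reason for so few Y peaks was not tested, and the sex of the cells was not determined by library. Whether the libraries with few Y peaks came from another animal or preparation is not given in the sources used here. Read totals are not in the lists, and the genome-wide background, which is proportional to depth, ranged from 0.713 to 1.42 tags per window. Results that rest on this split are given for both sides of it.

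The regions called in all 12 libraries had a median width of 837 bp, from 264 bp in an intron of Cadps (chr14:12537591-12537854) to 4536 bp at the mitochondrial-like block near Gm28437 (chr1:24611665-24616200). The next widest were the ribosomal RNA block at Gm26917, with 4273 bp, and a tandem repeat in an intron of Cacnb4 (chr2:52696320-52698967), with 2648 bp. In 439 of the 669, each library contributed exactly 1 peak. In a given library they were 0.679% to 2.59% of the list, yet they held 66% to 100% of its 100 peaks with the highest fold enrichment. Every one of the 669 passed a q-value of 0.05 in at least 2 libraries, and 334 passed in all 12.

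For the edge of the rule, the weakest members and the strongest regions called in 11 libraries were picked. Their contrast in strength follows from that choice. The members with the weakest single peak lay in an intron of Mrps27, near Gm1988 and in an intron of Zfp654, each with a fold enrichment of 2.22 in its weakest library and a median pileup of 6.5 to 8.5 tags. The 3 strongest regions called in 11 libraries lay near Gm20939, 4930558G05Rik and Gm48215, and all were absent from vehicle replicate 1. Their fold enrichments in the other libraries ran from 6.94 to 17.8, from 4.96 to 17.98 and from 6.33 to 17.8, and they held 22, 17 and 12 telomere-type hexamers. These values describe the edge only.

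How many lists agreed on a region went along with what the region contained. Promoters, here a summit within 3000 bp of any annotated start site, made up 19.5% of regions called in 1 library, were 59.8% of those called in 6, and made up 20.99% at 11 and 27.2% (182 of 669) at 12. Start sites of protein-coding genes alone accounted for 80 of the 669, or 11.96%, against 53.8% at 6 libraries. Of the remaining members, 276 were intergenic, 203 intronic and 8 exonic. Libraries listed different numbers of peaks, and the part of depth in this order was not tested.

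**Figure D1:**
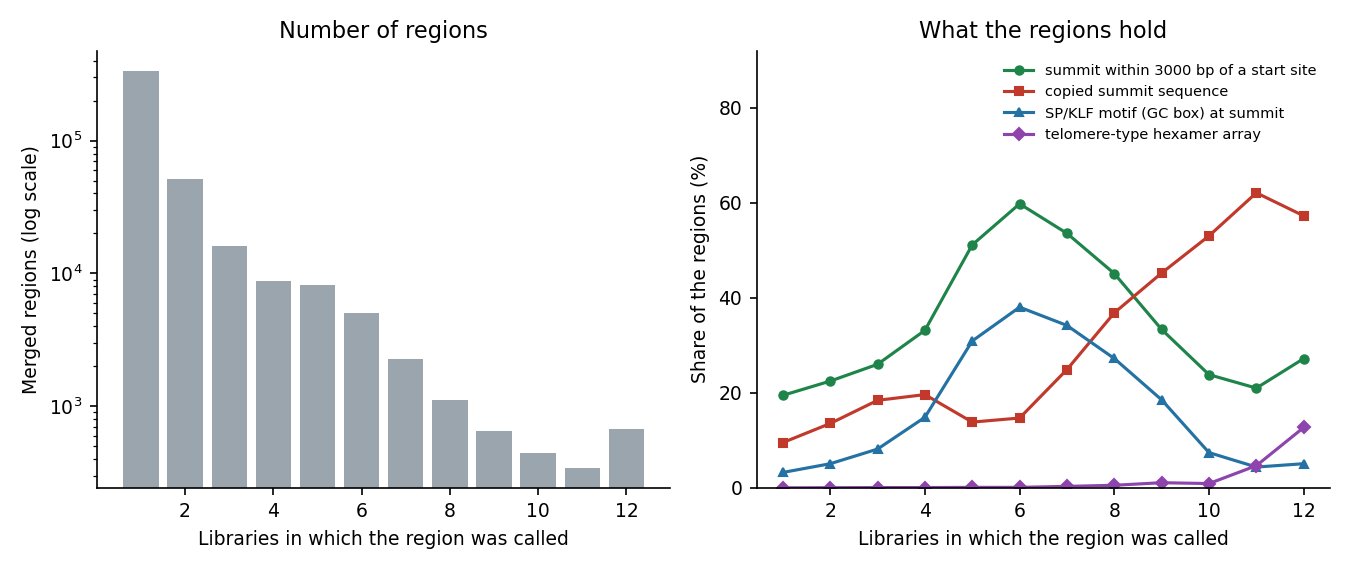
Left, number of merged regions (log axis) by the number of libraries in which a region was called, 1 to 12. Right, share of those regions, in percent, with a promoter summit, a copied summit sequence, an SP/KLF motif within 100 bp of the summit, or a telomere-type array; the promoter share peaks at 59.8% for 6 libraries, whereas copied and telomere-type sequence reach 57.2% and 12.7% at 12.

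Copied sequence ran the other way. The summit had more than 1 copy in the assembly in 9.52% of regions called in 1 library, 14.7% at 6, 62.1% at 11 and 57.2% (383 of 669) at 12, against 11.1% over all regions. More than 10 copies were found at 16.0% of the 669. The soft-masked share of the region, which marks repeats in the assembly, was over 50% in 314 members (46.9%), against 24.6% of all regions. Among promoters the contrast with regions called in 5 or 6 libraries was sharper. Of the 182 member promoters, 117 (64.3%) were copied, against 4.82% of promoters called in 5 libraries and 4.29% at 6. It was not particular to the 669. Of regions called in 11 libraries, 20.99% were promoters and 6.997% were promoters with a single-copy summit. These shares were 27.2% and 9.72% at 12, and 23.8% and 13.5% at 10.

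The sequence around the summit differed from that of the promoter-rich regions called in 6 libraries and was closer to that of all regions. The ratio of observed to expected CpG had a median of 0.12, against 0.60 for regions called in 6 and 0.17 over all regions. The GC box bound by SP and KLF factors, GGGCGG on either strand, was found within 100 bp of 5.08% of member summits, 38.0% of those at 6 libraries and 5.06% of all regions. The CCAAT box (bound by NFY) was present at 17.3% of member summits against 25.4% of all regions, and the AP-1 motifs TGAGTCA and TGACTCA at 2.54% against 4.02%. The estrogen response element, searched as GGTCA and TGACC 3 bases apart, and the CTCF motif were in none of the 669, while over all regions they were in 0.0264% and 0.233%, shares that give few matches among 669 regions. No match says only that these letters are not in this window.

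None of the genes in the lists of fibroblast and broadly used genes had a region among the 669. Of 24 fibroblast genes, among them collagens, Fn1, Pdgfra and Vim, 0 had a region called in all 12 libraries within 3000 bp of a start site, and the same held for 22 early response genes such as Fos, Jun and Egr1, for 85 cytosolic ribosomal protein genes and 81 splicing genes. The count was also 0 for the markers of other cell types (18 skeletal muscle, 10 endothelial, 10 immune, 8 adipocyte, 6 Schwann and neural, and 6 epithelial genes), for 17 estrogen response genes and for 1135 olfactory receptor genes, which are silent outside the nose. Over all 21755 protein-coding genes, 77 (0.354%) had one, so a count of 0 in a short list is near this background and says nothing particular to its genes. The best region of a ribosomal protein or early response gene was called in a median of 6 libraries, that of a fibroblast gene in 5 and that of an olfactory receptor gene in 1.

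Many of these promoters were in the set called in all 4 libraries numbered 1, but not in that of the 8 numbered 2 or 3. In the 12440 regions called in all 4 libraries numbered 1, promoters made up 65.8%, and 17 of 24 fibroblast genes, 20 of 22 early response genes and 72 of 85 ribosomal protein genes had a region, against 38.5% of all protein-coding genes. Skeletal muscle, endothelial, immune and epithelial markers stayed at 0 there, and olfactory receptors at 9 of 1135. In the 826 regions called in all 8 libraries numbered 2 or 3, fibroblast, early response and ribosomal protein genes were at 0, with 93 protein-coding genes (0.427%) in all, a share close to that of the 669. These sets ask for agreement of 4 and of 8 libraries, so their counts are not on 1 footing. By library, the fibroblast list had a peak at 19, 11 and 21 of 24 genes in vehicle, 23, 11 and 7 with E2, 21, 7 and 6 with E2 plus fulvestrant, and 22, 6 and 4 with fulvestrant. The libraries numbered 1 and vehicle replicate 3 were thus the 5 highest, and the split did not follow the number alone. Early response genes had a peak at 21 or 22 of 22 genes in the same 5 libraries and at 4 to 16 in the other 7.

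**Figure D2:**
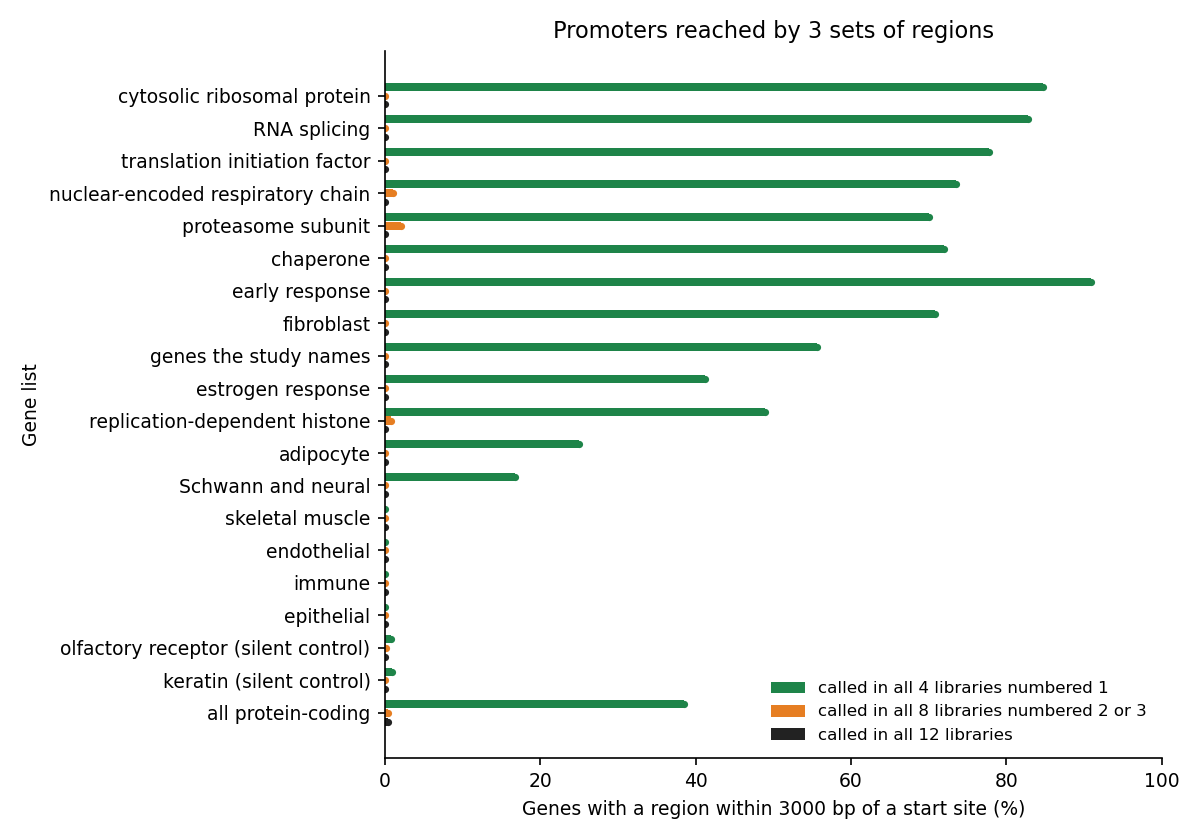
Share of the genes of each list, in percent, with a region within 3000 bp of a start site, for regions called in all 4 libraries numbered 1 (green), in all 8 numbered 2 or 3 (orange) and in all 12 (black); a dot at 0 means no gene. Bars are long only for the 4 libraries numbered 1, from 0% for muscle, endothelial, immune and epithelial markers to 90.9% for early response genes.

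By their sequence, the 669 fell into 6 classes, which were defined after the sequences had been seen. A telomere-type array, with at least 10 copies of the telomere hexamer on 1 strand, was present in 85, the satellite family took 26, mitochondrial-like sequence 3, other tandem repeats 206, and other copied summits 205. The last 144 had a single-copy summit and no tandem repeat. By BLAST, 321 of the 669 belonged to 53 sequence families of at least 2 members, the largest with 43. In position, 228 lay in 20 clusters of at least 5 members whose neighbours were at most 500 kb apart, and 332 were alone within that distance.

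Telomere-type arrays were the strongest class and lay on all 20 chromosomes. They were 12.7% of the 669 but 0.0403% of all 431930 regions, and of the 174 such regions in all, 85 were called in 12 libraries and 16 in 11. Their fold enrichment had a median of 19.3, against 4.77 over the 669. Of the 84 members whose lowest fold enrichment was at least 10, 43 were telomere-type. The assembly held 264 arrays of at least 10 hexamers on these chromosomes, of which 86 lay in a member. The longer the array, the more often it was in one: 47 of 195 arrays with 10 to 19 hexamers, 11 of 24 with 20 to 29, and 28 of 45 with 30 or more.

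The ends of the assembled chromosomes were among these regions. On 15 of 20 chromosomes the last region of the chromosome was called in all 12 libraries, and each of the 15 held 15 to 114 hexamers. These regions ended 98 to 104 bp past the last assembled base, the tags being extended into the gap that follows. On 2 more chromosomes, 6 and 17, the last region was called in 11. Within 100 kb of the last assembled base lay 24 of the 669 (3.59%) and 0.0894% of all regions, and within 100 kb of the first assembled base, on the centromere side, 36 (5.38%) and 0.112%. The satellite family contributed 17 of those 36 and the telomere-type class 0.

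The array near Gm23941, in intergenic sequence 23225 bp from its start site, is the end of chromosome 3, with 45 hexamers in the region chr3:159939305-159939779. Its fold enrichment was 32.2, 35.6 and 30.4 in the 3 vehicle libraries, 32.5, 33.5 and 35.2 with E2, 31.9, 33.9 and 32.2 with E2 plus fulvestrant, and 31.1, 32.3 and 33.4 with fulvestrant. The 4 treatments overlapped. The region near Tcstv3, a gene of a multicopy cluster, is the end of chromosome 13 (chr13:120321319-120321739, 33 hexamers). There the 3 vehicle libraries gave 26.5, 38.5 and 34.1, E2 37.9, 38.8 and 40.4, E2 plus fulvestrant 34.5, 40.1 and 38.7, and fulvestrant 35.9, 36.3 and 37.6. Vehicle replicate 1 was the lowest of the 12.

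The region at the end of chromosome 16 (chr16:98107337-98107871, nearest gene A630089N07Rik) had the same order within vehicle, at 25.7, 27.96 and 26.02. With E2 it stood at 30.9, 31.5 and 32.6, with E2 plus fulvestrant at 28.5, 30.7 and 31.6, and with fulvestrant at 30.9, 30.5 and 30.7. All 3 vehicle libraries were below the other 9 here. These regions were picked for the highest signal, so the order carries no test of its own.

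Arrays inside chromosomes reached the same level. The Phf21a region (chr2:92093496-92093886, 24 hexamers) lay 558 bp from a start site of Phf21a, whose product reads unmethylated histone H3. Its fold enrichment was 27.1, 37.7 and 33.7 in vehicle, 34.8, 37.9 and 39.6 with E2, 36.7, 40.2 and 37.8 with E2 plus fulvestrant, and 36.2, 35.1 and 36.5 with fulvestrant. In an intron of Lama1, which encodes a laminin chain of basement membranes, 29 hexamers (chr17:67741262-67741716) gave 31.6, 39.3 and 29.1, then 31.6, 33.9 and 36.5, then 31.2, 35.9 and 33.2, and 31.5, 34.0 and 34.0 in the same order of treatments. At Phf21a vehicle replicate 1 was the lowest of the 12, and at Lama1 the vehicle libraries held both the highest and the lowest value.

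The satellite family had the most tags but a low ratio. Its 26 regions had a median pileup, the number of extended tags at the summit, of 571, against 16.5 over the 669, while their median fold enrichment was 3.07. The local background in the family was itself high, with medians of 64.2 to 297 tags by library. A period of 234 bases, that of the mouse major satellite, was the commonest, in 14 of the 26, and 3 members, Gm44436 among them, had a period of 120 bases, that of the mouse minor satellite. Of the family, 17 lay in chr9:2999910-3038378, the first 38.5 kb of assembled chromosome 9, where small predicted genes such as Gm10715, Gm10717 and Gm10720 are annotated on the repeat, and 20 of the 26 therefore counted as promoters.

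The highest pileup of any member was at chr2:98666187-98667411, 502 bp from the start site of the predicted gene Gm10800. It was 6435, 4669 and 8599 tags in vehicle, 8641, 10078 and 10863 with E2, 8014, 11741 and 11076 with E2 plus fulvestrant, and 8490, 9246 and 10687 with fulvestrant. The fold enrichment there was nearly flat, between 12.6 and 13.7 over the 12 libraries. At Gm44436, in an intron of Chl1, a cell adhesion gene, and 48546 bp from its start, the pileup was 710 to 1041, and the fold enrichment of 31.7 to 35.1 held the highest minimum over libraries of all 669. Another member of the family, near Gm9075 (chr12:3109762-3110222), had 86 copies of its summit and a fold enrichment of 30.9 to 32.7.

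Mitochondrial-like sequence was found at 3 members. The block near Gm28437, a pseudogene, matched the mitochondrial genome over 4524 bases at 99.9% identity. Its pileup ranged from 202 to 1756 tags and its fold enrichment from 3.08 to 3.99. The other 2 lay near Gm47397 (chr12:97061334-97061767) and Gm13341 (chr2:22587646-22588237), with median fold enrichments of 27.4 and 14.1. The Gm47397 region gave 28.97, 19.2 and 30.5 in vehicle, 29.4, 24 and 22.4 with E2, 30.4, 27.1 and 27.7 with E2 plus fulvestrant, and 29.2, 26.8 and 21.3 with fulvestrant. Its 5 highest values were those of the libraries numbered 1 and of vehicle replicate 3.

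Genes annotated as ribosomal RNA were matched at 10 members, by at least 100 bases at 80% identity. The annotation was taken as given, also for 4.5S RNA, so a match does not show that the sequence is part of a ribosome. Of these, 6 held copies of 4.5S RNA (Rn4.5s) within chr6:47739185-47778638, next to Rny3 repeats, 1 region held a 5S gene (chr8:123600485-123601695), and 3 matched the block of the 45S precursor that is placed on chromosome 17. The largest of these, chr17:39843007-39847279 at the long noncoding RNA gene Gm26917, had a pileup of 1241 in vehicle, 2276 in E2, 1810 in E2 plus fulvestrant and 2153 in fulvestrant for the libraries numbered 1. Numbers 2 and 3 gave 445 and 1726 in vehicle, 477 and 430 with E2, 529 and 541 with E2 plus fulvestrant, and 848 and 649 with fulvestrant. The libraries numbered 1 and vehicle replicate 3 were the 5 highest, yet the fold enrichment lay between 2.82 and 4.14 everywhere.

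The same 5 libraries were highest at the first Rn4.5s copy (chr6:47739185-47740377). Its fold enrichment was 6.68, 2.89 and 7.97 in vehicle, 7.96, 2.24 and 3.53 with E2, 7.97, 3.50 and 2.58 with E2 plus fulvestrant, and 7.57, 6.02 and 2.79 with fulvestrant. A fragment of the 45S block on chromosome 6 near Gm2651 (chr6:3201113-3201727) had 21.5, 8.90 and 23.1 in vehicle, 20.98, 13.5 and 13.2 with E2, 22.5, 18.02 and 16.7 with E2 plus fulvestrant, and 22.2, 18.3 and 15.3 with fulvestrant. At both, the libraries numbered 1 and vehicle replicate 3 were the 5 highest. This order did not hold at every match. At the Rn4.5s copy of chr6:47743786-47745519 fulvestrant replicate 2 gave 6.39 and vehicle replicate 1 gave 5.31. At the 5S region vehicle replicate 2 was the highest, at 5.72.

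The same 5 libraries were also the highest at an exon of Lars2, which encodes the mitochondrial leucyl-tRNA synthetase (chr9:123461688-123462299). Its fold enrichment was 26.6, 15.9 and 28.03 in vehicle, 27.8, 20.1 and 19.6 with E2, 29.04, 21.1 and 21.6 with E2 plus fulvestrant, and 26.0, 22.5 and 21.4 with fulvestrant. The summit had a single copy, and the region belonged to a family of 5 by BLAST. It matched neither mitochondrial sequence nor annotated rRNA genes by the criteria used, and a full ribosomal DNA unit was not used here. It was the strongest of the 8 exonic members, whose medians otherwise ran from 3.94 to 8.40. Lars2 was picked after its values had been seen.

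Members stood together in several gene clusters, while 51 of the 205 other copied summits were alone within 500 kb. The largest held 36 members in chr8:19713210-20823240, a stretch of 1110 kb with predicted genes such as Gm15319 and Gm21119, of which 31 were copied. The next held 34 in chr5:14910550-15712407, the Speer4 cluster of genes expressed in the testis, with 29 copied. A cluster in chr13:65450690-66491243 held 17, with 10 copied. Immunoglobulin heavy chain variable genes on chromosome 12 (chr12:115067659-115913171) held 14, of which only 3 were copied. Zinc finger genes on chromosome 4 (chr4:146173453-147587488) held 8, with 4 copied. Around Hrh1, the histamine H1 receptor gene, lay 13 in chr6:114340829-114611820, with 11 copied. The imprinted snoRNA host Snhg14 held 8 in chr7:59735879-59779531, all of 1 sequence family, and the Duxf3 cluster of embryonic transcription factor genes held 5.

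Signal in these clusters was low. The regions given here were picked for a high minimum over libraries, so their spread does not stand for the clusters. At Speer4e (chr5:14940298-14940879) the fold enrichment was 4.52, 6.06 and 4.89 in vehicle, 5.08, 6.46 and 5.25 with E2, 5.11, 4.68 and 4.52 with E2 plus fulvestrant, and 5.49, 5.83 and 6.61 with fulvestrant. At the snoRNA gene Gm25157 it ran from 4.60 to 6.19 over the 12 libraries, and at the repeat near Hrh1 from 3.40 to 4.43. The cluster medians were 3.95 on chromosome 8, 3.65 on chromosome 5 and 3.97 in the immunoglobulin cluster.

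Among the 182 member promoters, 74 had a protein-coding gene as the nearest start site, 30 a processed pseudogene, 15 a lincRNA, 12 an immunoglobulin variable gene, 11 a snoRNA and 8 a miRNA. By the start sites of protein-coding genes, the member with a single-copy summit and the highest minimum over libraries was near Aida, whose product binds axin (chr1:183299033-183299683). It was 1762 bp from the start site, with 15.2, 18.04 and 16.3 in vehicle, 17.6, 20.6 and 21.1 with E2, 17.2, 20.4 and 20.2 with E2 plus fulvestrant, and 15.5, 19.4 and 20.5 with fulvestrant. The groups overlapped. By BLAST the Aida region still belonged to a family of 43 members. The region at the miRNA gene Gm23935, 2229 bp from a start site of Zc3h7a (chr16:11143793-11144408), gave 21.9, 15.4 and 22.0 in vehicle, 22.998, 17.9 and 16.0 with E2, 22.4, 20.4 and 14.6 with E2 plus fulvestrant, and 22.1, 18.6 and 17.9 with fulvestrant. It belonged to a family of 3, and its 5 highest values again fell in the libraries numbered 1 and vehicle replicate 3.

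Apart from Gm10800, the other single-copy promoters of protein-coding genes were weaker. At Plcb4, a phospholipase C gene (chr2:135988437-135989214), the values were 8.88, 20.3 and 6.42 in vehicle, 10.2, 12.4 and 10.5 with E2, 14.2, 10.9 and 10.6 with E2 plus fulvestrant, and 13.4, 10.3 and 11.6 with fulvestrant. The vehicle libraries held both the highest and the lowest of the 12. Gm17655 (chr5:110074379-110074943) had 6.42 to 18.4 and carried 13 hexamers, and the pseudogene start Gm18190 beside Gm45844 (chr7:7277570-7278571) had 7.39 to 10.8. The last of these 8 promoters were Gm19459 beside Gm4981 (chr10:58239049-58239811), at 5.09 to 8.13, and 4931408C20Rik (chr1:26685935-26688513), at 4.55 to 6.47.

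Distal members with single-copy summits included some of the highest towers. The highest after Gm44436 lay 229670 bp from Gata6, a transcription factor gene of heart and gut (chr18:11288493-11288940), where vehicle replicate 1 gave 22.6 and the other 11 libraries 31.3 to 34.1. Its sequence was a tandem repeat, as was the region near Gm6639 (chr3:35680360-35681066), with 21.5 to 28.7. The regions near AC166110.4 (chr17:13305849-13306366) and in an intron of Sos2, which encodes a Ras exchange factor (chr12:69653956-69654438), gave 21.8 to 26.7 and 20.4 to 27.4. In none of these 5 did the 3 vehicle libraries stand apart from the rest as a group.

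**Figure D3:**
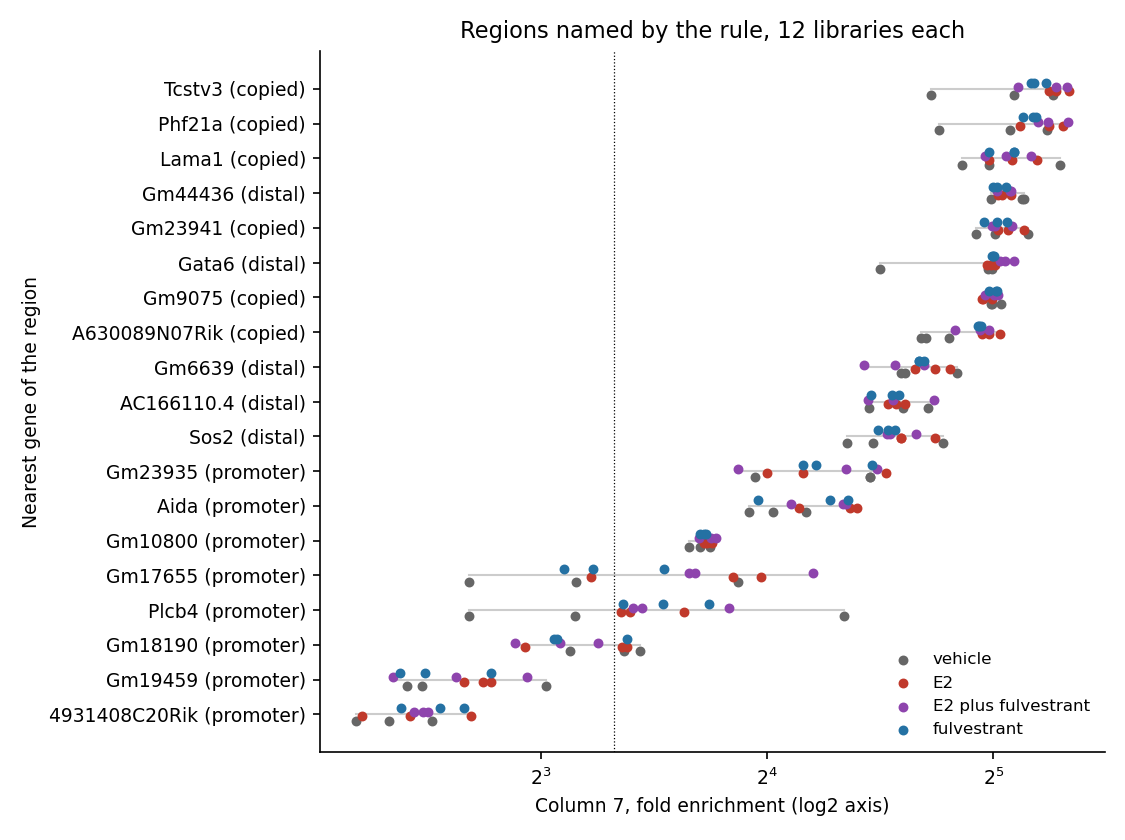
Fold enrichment (log2 axis) in each of the 12 libraries, coloured by treatment, for the strongest member promoters, distal members and copied members chosen by rank of the lowest value; the dotted line marks 10. Points of the 4 treatments overlap in most rows, and vehicle libraries give the widest spread, from 6.42 to 20.3 at Plcb4.

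By the measures used for high-signal artifacts, 430 of the 669 (64.3%) met at least 1 of 3. Copied or mitochondrial-like sequence was found in 383 (57.2%), against 11.1% of all regions, and a fold enrichment of at least 10 in every library in 84 (12.6%); the 2 kinds of sequence were counted as separate measures. Of those 84, 37 were copied and 47 had a single-copy summit, and this measure uses the signal that the rule selected on. None of the 3 applied to 239 members (35.7%), of which 58 were promoters and 22 protein-coding promoters. The measures do not count tandem repeats or matches to ribosomal RNA, so the 239 still include telomere-type, satellite and other tandem repeat members. They also include the 45S blocks at Gm26917 and CT010467.1 on chromosome 17, with single-copy summits and median pileups of 748.5 and 540.5 tags. Of the 239, 110 were also alone within 500 kb and without a sequence family. Members of the 22 included Psen2, Map3k7, Miga1, Plxnc1 and Nadk2, which were named after their values had been seen.

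Psen2, the gene of presenilin 2, had fold enrichments with a median of 4.02 and a lowest of 3 (chr1:180242273-180244536). Map3k7, the kinase TAK1 of TGF-β signaling, had a median of 4.77 and a lowest of 3.31 (chr4:31986846-31988015). At Miga1 these were 6.76 and 4.10, and at Plxnc1, which held 12 telomere-type hexamers, 6.17 and 4.09. The list of excluded regions that the study applied was not used here, so how many of the 669 it holds was not measured. Copies were counted in the C57BL/6J assembly, while the transgene was made in FVB/N, and copies in that strain were not measured either.

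How far 1 library or treatment narrowed the set is given here as a description, since these shares use the calls that define it. Of regions called in the other 11 libraries, 90.8% (vehicle replicate 3) to 99.0% (E2 replicate 1) were also called in the library left out, which itself listed 6.60% to 25.2% of all regions. Leaving out a whole treatment, 736 regions were called in the other 9 libraries for E2 and likewise for fulvestrant, and 90.9% of them were called in all 3 libraries of the treatment left out. The share was 84.3% of 794 for E2 plus fulvestrant and 79.7% of 839 for vehicle. Only 4 of the 839 were called in no vehicle library, 3 of the 794 in no E2 plus fulvestrant library, and none of the 736 in either remaining case.

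Fold enrichment over the 669 differed little between treatments. The library medians were 4.46, 5.79 and 4.46 in vehicle, 5.33, 4.87 and 5 with E2, 4.91, 4.64 and 4.74 with E2 plus fulvestrant, and 5.13, 4.95 and 5.02 with fulvestrant. As a mean of the medians this was 4.90 ± 0.77 (SD, n = 3) in vehicle, 5.06 ± 0.24 with E2, 4.76 ± 0.14 with E2 plus fulvestrant and 5.03 ± 0.092 with fulvestrant. Vehicle replicate 2 was above the other 11, and the vehicle libraries spanned all other values. Over the members, the pairwise correlation of log2 fold enrichment between libraries had a median of 0.910 within a treatment and 0.898 across treatments, as a description over regions that share libraries.

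**Figure D4:**
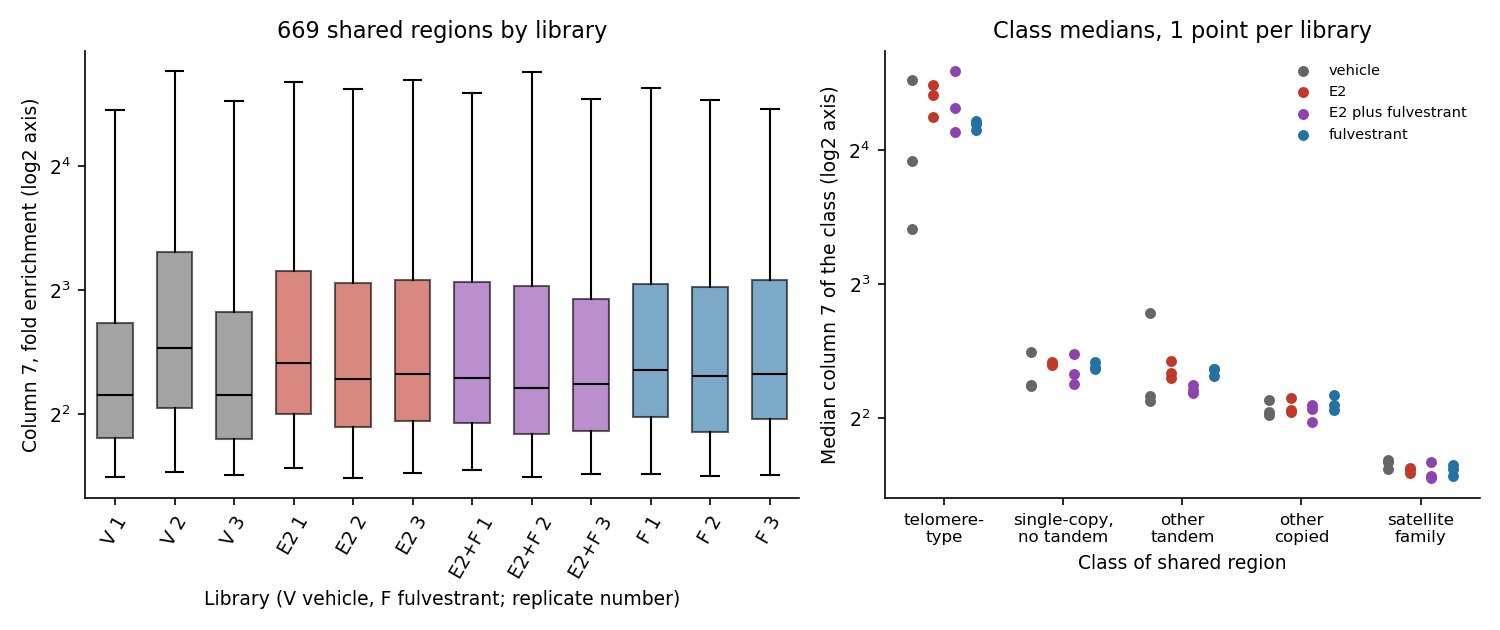
Left, fold enrichment (log2 axis) of the 669 regions by library, with the median, quartiles and whiskers at the 5th and 95th percentiles, coloured by treatment. Right, median fold enrichment of each sequence class (log2 axis), 1 point per library; telomere-type regions lie highest, from 10.6 in vehicle replicate 1 to 24.1 in E2 plus fulvestrant replicate 2, and the satellite family lowest, near 3.

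The classes differed in how far libraries spread. Telomere-type regions had library medians of 10.6, 23.01 and 15.1 in vehicle, 18.97, 21.3 and 22.5 with E2, 17.6, 24.1 and 19.9 with E2 plus fulvestrant, and 17.8, 18.7 and 18.3 with fulvestrant. Vehicle replicates 1 and 3 were the lowest of the 12, and vehicle replicate 2 was the second highest. Single-copy regions without tandem repeats stood at 5.03 ± 0.51 (SD, n = 3) in vehicle, 5.30 ± 0.042 with E2, 5.12 ± 0.41 with E2 plus fulvestrant and 5.24 ± 0.092 with fulvestrant. The satellite family stayed between 2.93 and 3.22 in every library.

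For a test across regions, limma was fitted to log2 fold enrichment in the 1880 regions with a value in at least 2 of 3 libraries of each treatment, which include all 669, and p-values were adjusted over the 1880 by the Benjamini-Hochberg method. The question of the study's design was whether E2 changes accessibility and whether fulvestrant blocks it. Members needed a peak in every library, and regions of the table a peak in at least 2 of 3 libraries of each treatment. Regions whose peak appears or disappears with a treatment were therefore left out, and the fits do not answer the question for them. For E2 minus E2 plus fulvestrant, 0 members were called at an adjusted p of 0.05, where the share called in the table was 0%. The count was also 0, with 0% of the table, for E2 minus vehicle, fulvestrant minus vehicle, E2 plus fulvestrant minus vehicle and the interaction of E2 with fulvestrant. The smallest adjusted p of a member by limma was 1.00, 0.762, 0.846, 0.742 and 0.968 in that order of contrasts. On simulated data of the same size for E2 minus vehicle, 200 of the 1880 regions were changed. The fit recovered 17.6% of those changed by 0.5 on the log2 scale, 57.6% at 1 and 95.5% at 2. The adjusted p depends on how many regions change, so recovery where few regions change was not measured.

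At an unadjusted p under 0.05, limma gave 7 members for E2 minus E2 plus fulvestrant (2.34% of the table passed), 46 for E2 minus vehicle (6.28%), 27 for fulvestrant minus vehicle (5.59%), 64 for E2 plus fulvestrant minus vehicle (6.54%) and 16 for the interaction (3.72%). As shares of the 669 these were 1.05%, 6.88%, 4.04%, 9.57% and 2.39%. With 1 library left out, the 46 became 19 without vehicle replicate 1 or E2 replicate 3, 22 without E2 replicate 2 and 104 without vehicle replicate 2. The 64 became 25 without vehicle replicate 1 and 17 and 39 without E2 plus fulvestrant replicates 2 and 3. They rose to 86 and 71 without vehicle replicates 2 and 3, and to 83 without E2 plus fulvestrant replicate 1. The 27 became 14 without fulvestrant replicate 2 and 66 and 45 without vehicle replicates 2 and 3, the 16 became 53, 28 and 10 without vehicle replicates 2 and 3 and fulvestrant replicate 3, and the 7 ranged from 5 to 13, the latter without vehicle replicate 2. Within the libraries numbered 2 and 3 the 5 counts were 10, 48, 22, 67 and 10, with 0 called at an adjusted p of 0.05, and the libraries numbered 1 had 1 library per treatment and no test. The 3 contrasts against vehicle share the vehicle libraries. Of the 64, 41 were telomere-type, as were 24 of the 46. Members whose 3 values lay all above or all below the 3 of the other group made up 9.27% for E2 minus E2 plus fulvestrant, 7.17% for E2 minus vehicle, and 10.9% for each of the other 2 contrasts with vehicle. Over the table, in which 0% was called, the shares were 15.1%, 17.6%, 17.7% and 17.3%. Regions of the table can have only 2 values in a group, and fewer values separate more easily, so these shares are not on 1 footing with those of the members.

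Values were centred on each library's median over the 669, so member medians near 0 follow from the centring and are not a result. The fitted log2 differences of the members had medians of -0.042, -0.016, -0.019 and 0.023 for E2 minus E2 plus fulvestrant, E2 minus vehicle, fulvestrant minus vehicle and E2 plus fulvestrant minus vehicle. Over the whole table they were -0.046, -0.071, -0.073 and -0.041. Without centring, the member medians were 0.045, 0.041, 0.030 and -0.007 in the same order. With centring, telomere-type members had medians of -0.064, 0.37, 0.18 and 0.44 in these contrasts. Vehicle replicates 1 and 3, the lowest for this class, stand in all 3 of the latter, and their part in the shift was not tested.

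**Figure D5:**
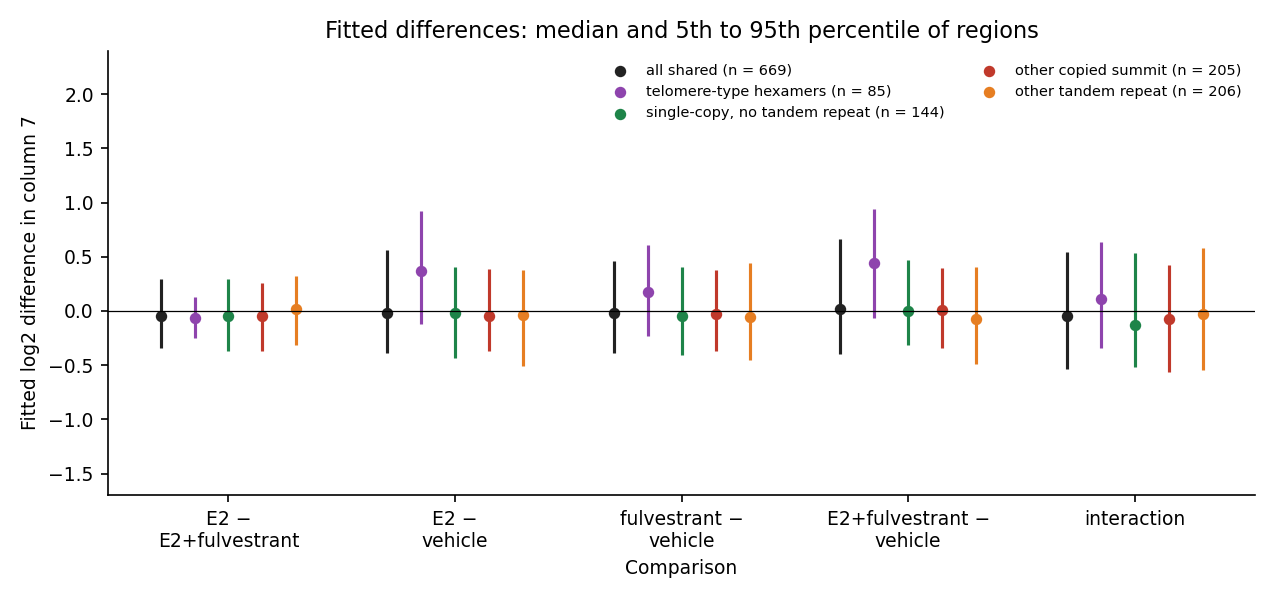
Fitted log2 difference in fold enrichment for the 5 comparisons, as the median (point) and 5th to 95th percentile of regions (line), for all 669 members and 4 of their classes. Centring on the members sets the median of all 669 near 0. Outside the interaction, class medians also lie near 0 except those of the telomere-type class against vehicle, which reach 0.44. For the interaction, the 4 class medians run from -0.13 in single-copy members to 0.11 in telomere-type members.

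The members with the smallest p in each contrast show the spread behind these counts. For E2 plus fulvestrant minus vehicle it was a telomere-type array of 14 hexamers in an intron of the phosphodiesterase gene Pde1c (chr6:56233558-56233846, nearest start site Gm44413), with 4.67, 16.5 and 5.45 in vehicle and 14.8, 21.6 and 18.2 with E2 plus fulvestrant. Vehicle replicate 2 lay among the treated values. The log2 difference was 1.29 ± 0.32 (SE), with an adjusted p of 0.742 by limma, and without vehicle replicate 2 it was 1.74 with an adjusted p of 0.011, the only member called in that comparison by leaving out a library.

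For E2 minus vehicle it was an array of 16 hexamers in an intron of the urea transporter gene Slc14a2 (chr18:78198146-78198516), with 7.39, 20 and 13.9 in vehicle against 22.1, 22.5 and 25.8 with E2. The groups did not overlap, and the log2 difference was 0.83 ± 0.24 (adjusted p = 0.762 by limma, 0% of the table called). Without vehicle replicate 1 the difference was 0.50. For fulvestrant minus vehicle it was a single-copy region in an intron of 6820431F20Rik in the cluster on chromosome 8 (chr8:20266409-20267179), with 3.61, 3.92 and 3.86 against 2.62, 2.57 and 2.90. Here too the groups did not overlap, with a log2 difference of -0.54 ± 0.16 (adjusted p = 0.846 by limma, 0% called).

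For the contrast of E2 with E2 plus fulvestrant, the copied region near Gm21119 in the same cluster (chr8:20711502-20711996) had 2.83, 3.37 and 3.57 with E2 and 3.67, 4.41 and 5.33 with E2 plus fulvestrant. The values did not overlap, and the log2 difference was -0.53 ± 0.20 (adjusted p = 1.00 by limma, 0% called). For the interaction, the copied region near Gm17019 in the Speer4 cluster (chr5:15005847-15008485) had 5.41, 5.15 and 4.46 in vehicle, 3.96, 4.25 and 3.53 with E2, 4.63, 4.56 and 5.82 with E2 plus fulvestrant, and 4.03, 3.56 and 3.63 with fulvestrant. The interaction was -0.90 ± 0.28 on the log2 scale, with an adjusted p of 0.968 by limma.

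The number of the library was compared in the same way, with treatment as a covariate and in 1852 regions. The libraries numbered 1 against those numbered 2 and 3 gave 1 called member, where 0.108% of the table (2 regions, both lower in number 1) was called, and 127 members at an unadjusted p under 0.05, where 17% of the table passed. The called member was the array of 30 hexamers near Gm13173 (chr4:153152930-153153315). Its fold enrichment was 14.6, 24.3, 22.2 and 23.6 in the libraries numbered 1, in the order vehicle, E2, E2 plus fulvestrant and fulvestrant, and 22.9 to 33.4 in the other 8. The log2 difference was -0.46 ± 0.08, with an adjusted p of 0.0293 by limma. This call was lost on leaving out any of 8 libraries, which were all 3 of E2, all 3 of E2 plus fulvestrant, and fulvestrant replicates 2 and 3, and the count of called members ranged from 0 to 80 over the libraries left out, reaching 30 (9 higher and 21 lower in number 1) without vehicle replicate 1 and 80 (32 higher and 48 lower) without vehicle replicate 3. Over the table, these left-out fits called 137 regions, 109 of them higher in number 1, and 231 regions, 166 of them higher.

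Telomere-type members accounted for 58 of the 127, and 83 of the 85 had a lower fitted value in the libraries numbered 1, with a median log2 difference of -0.36, against -0.010 over the 669. Single-copy members without tandem repeats had a median of 0.031, with 81 of 144 higher. The libraries numbered 1 also had far fewer peaks on chromosome Y and more peaks at promoters, and the part of either in this difference was not tested.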

How the data were processed

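Peak lists of 12 ATAC-seq libraries were used. According to the study's methods, the authors trimmed reads with Trimmomatic 0.39, aligned them to mm10 with Bowtie2, removed duplicates with Picard 2.21.4 and called peaks in each library by itself with MACS2, with tags shifted by -100 and extended to 200 bases; no mapping-quality filter is stated. The deposited fold enrichment is a ratio made by the authors with MACS2, the pileup at the summit over the local background with a pseudocount of 1 added to both. The deposited −log10 p and −log10 q values of each peak come from the same step. The smallest values in the lists correspond to a cutoff of 0.01 on the p-value. The study removed a list of excluded regions before its own tests, which was not used here.

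From these lists, regions were built on chromosomes 1 to 19 and X, and a library with several peaks in a region took the highest fold enrichment. Pileups were recovered as whole tags from the ratio and the p-value. Copies were counted as exact 32-base words in GRCm38, start sites came from GENCODE release M21, and families from BLAST+ 2.17.0 alignments of at least 150 bases at 80% identity. limma 3.58.1 (R 4.3.3, trend and robust) was fitted to log2 fold enrichment centred on the median of the shared regions, with all 4 treatments in 1 fit, and tested on simulated data. The counts model of the study could not be fitted because the lists hold no counts per region. Other tools were Python 3.11.15, numpy 2.4.6, pandas 2.3.3, scipy 1.17.1, numba 0.67.0 and matplotlib 3.10.9.

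The members, gene lists and tests were chosen with earlier results of these data known, and the telomere-type, satellite and ribosomal RNA classes after seeing the sequences. Regions were named by a rule: the highest minimum fold enrichment among 8 promoters of protein-coding genes and 5 distal regions that were not copied and 6 that were, the smallest p of each contrast, and the edges of the rule and of width. No library was left out of the main results, and 0 columns of other samples were present. Replicate numbers did not meet the criterion for pairing, a correlation over 0.1 in every same-numbered pair, although libraries numbered 1 deviated together. Alternatives covered peak thresholds, merging, promoter and copy definitions, centring, the model and each library left out. Some sequences are not reported here.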

Additional observations from a re-analysis of the deposited data

Results flagged for a closer look

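Peaks on sequences other than chromosomes 1 to 19 and X were outside all comparisons above, and 52 of their 3354 merged regions were called in all 12 libraries, which is signal in data not otherwise used. They were 45 of 605 regions on unlocalized and unplaced sequences, 4 of 2745 on chromosome Y and 3 of 4 on the mitochondrial genome. The methods of the study state that reads on the mitochondrial genome and on random and unplaced sequences were removed, while the deposited lists hold peaks there.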

How the results depend on the processing

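The number of regions called in all 12 libraries was 334 with peaks at a q-value of 0.05 or lower, 440 with fold enrichment of at least 3, 384 with 500 bp windows on the summits and 12440 when only the 4 libraries numbered 1 had to agree; leaving out 1 library gave 676 to 737. The promoter share was 65.8% for the libraries numbered 1, 14.6% within 1000 bp of a start site and 11.96% for protein-coding start sites. The copied or mitochondrial-like share was 50.6% at a q-value of 0.05, 52.9% with 500 bp windows, 9.31% for the libraries numbered 1, 67.4% with 24-base words, 16.4% for over 10 copies and 46.9% by soft-masking. For the number of the library, called members were 0 without centring, 56 when only the shared regions were fitted, 0 without copied regions, 4 without trend and robust fitting, and, as settings chosen after seeing the data, 6 with the recovered pileup and 0 when centred on single-copy members; leaving out 1 library gave 0 to 80. For E2 plus fulvestrant minus vehicle the count was 0 to 1 with 1 library left out, the 1 being without vehicle replicate 2. The cause of these shifts was not tested.

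Deviations of same-numbered libraries correlated from -0.21 to 0.51, with 12 of 18 pairs over 0.1 and a median of 0.16, against -0.15 for differently numbered pairs. The 6 pairs of libraries numbered 1 lay between 0.33 and 0.51, so the number carries a shared difference for them, whose source is not given, while numbers 2 and 3 did not pair the libraries throughout. With the replicate number as a block, 0 members were called in each of the 5 treatment contrasts, and the 46 members at an unadjusted p under 0.05 for E2 minus vehicle became 72.

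The lists give no read totals, so depth was judged from the background alone. A recovered fraction of 17.6% at a log2 change of 0.5 limits what the 0 calls say about small changes. Fold enrichment does not pass 50 at an isolated site, and it is low where the surrounding background is high, as in the satellite family. Copy counts hold for the assembly.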
